A study of Homo sapiens with 4 samples.

Results

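The nucleolar ribosome biogenesis factors examined here are 38 genes whose products make ribosomal RNA, modify and cut it, and assemble it with ribosomal proteins. They were found by gene symbol in a table of 20322 targets, 1 transcript per gene, and all 38 were present once. RNA came from HT-29, a human colorectal adenocarcinoma line. All 4 samples carry a CRISPR/Cas9 edit aimed at IMP1 (gene IGF2BP1), an RNA-binding protein of fetal and tumour tissue. The null group (2 libraries) received an empty PiggyBac vector. The IMP1-OE group (2 libraries) received a PiggyBac vector with FLAG-tagged IMP1 and a short UTR, so IMP1 is put back rather than native. The labels name a mouse liver metastasis as the origin of the cells. The comparison asks which mRNAs differ in level once IMP1 is back. Whether the lines of a genotype are separate clones or parallel cultures is not stated, and where the replicates are technical the p-values cover technical spread alone.

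Ribosomes are built in the nucleolus. RNA polymerase I transcribes a long precursor RNA there, small nucleolar ribonucleoproteins (snoRNPs) guide its chemical modification, and large assemblies fold and cut it into the RNAs of the small (40S) and large (60S) subunits. Many of these factors are abundant in fast-growing tumour cells, and several of their genes are classical targets of the transcription factor MYC.

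Library totals ran from 9343429 to 10594813 counts. A single gene, ARSI, held 17.8% and 17.3% of the counts in the null libraries and 8.01% and 12.4% in IMP1-OE. With ARSI left out of the fit, the members' median log2 fold change was 0.323, against 0.320 with it. IGF2BP1 itself had 37 and 16 counts in the null libraries against 71 and 112 in IMP1-OE, which follows the labels. In CPM (counts relative to a library total scaled by edgeR's TMM method, as everywhere below) these were 3.62 and 1.75 against 6.76 and 10.6. The level was thus low in IMP1-OE as well. Null replicate 2 stood apart from the other libraries. All 16 interferon-stimulated genes of a list drawn up to check that library were highest there, which describes it and is not independent support. Their summed level there was 7159 CPM, against 862 to 1065 CPM elsewhere. Fold changes without that library are given by role below. Of 14 colon epithelium markers the summed level was 21043 to 28855 CPM, mostly KRT8 and KRT18, while the intestinal factors CDX1 and CDX2 were at most 0.880 and 4.597 CPM. Null replicate 1 stood apart on several of these markers: CEACAM5 was at 59.3 CPM there against 3.83 to 10.2 CPM elsewhere, TFF3 at 38.2 against 0.380 to 2.28 CPM, and CDH17 at 12.3 against 0.438 to 2.76 CPM. The part of this in the members' values was not tested. The summed level of 8 hepatocyte markers was 229 to 732 CPM, nearly all of it SERPINA1, and ALB, APOA1 and HP were at 0 in all libraries. Among 8 leukocyte markers (1447 to 2834 CPM, nearly all LYZ) CD3E and SRGN were at 0, and stromal markers summed to 4.37 to 15.9 CPM.

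A short DNA element was shared by many of these genes. They were chosen by symbol, and several are classical MYC targets, so their choice may not be independent of this element. The E-box CACGTG, which reads the same on both strands, is bound by MYC with its partner MAX and by other factors. It was searched in RefSeq promoter windows (GRCh38.p14) that run from 250 bases before to 50 after a listed start. Some genes have more than 1 window, and a listed start can lie inside the gene. The BYSL site shown begins at 41921517, while the RefSeq gene begins at 41908759. Windows were found for 33 of the 38 genes, all but BOP1, NOLC1, NOP58, RRP12 and RRS1, and 18 of the 33 (54.5%) held the element. Among all 27305 genes with a window the share was 8.77%, and among genes tested for expression 12.8%. Counted by window, the shares were 46.3% of 41 and 7.26% of 35116. In 16 of the 18 genes the nearest element began within 50 bases of a listed start. The sites shown are, for each role, up to 2 genes with a site and the smallest expression p, 5′ to 3′ on the gene's strand, with the element in capitals. None of the RNA polymerase I genes held one.
PES1 (chr22:30591882-30591907, minus strand): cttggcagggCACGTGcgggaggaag
RRP9 (chr3:51941894-51941919, minus strand): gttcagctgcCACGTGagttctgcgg
FBL (chr19:39846358-39846383, minus strand): cgctcttttcCACGTGcgaaagcccc
NOP10 (chr15:34343132-34343157, minus strand): aattgacgaaCACGTGacgcggtcgg
GAR1 (chr4:109815783-109815808, plus strand): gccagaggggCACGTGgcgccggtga
GNL3 (chr3:52686028-52686053, plus strand): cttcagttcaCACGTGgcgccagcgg
EBNA1BP2 (chr1:43172792-43172817, minus strand): tattgttggcCACGTGggatcgaaga
PWP1 (chr12:107685654-107685679, plus strand): cagaccagccCACGTGgattcctcgc
BYSL (chr6:41921517-41921542, plus strand): cttcagtcccCACGTGcgatccttcc
PWP2 (chr21:44107390-44107415, plus strand): agctgcggcaCACGTGcgacggccgt
The bases around the element differ from gene to gene. The share was 24.0% of 121 in a wider list of ribosome biogenesis genes, 12.9% of 70 for mitochondrial ribosomal proteins and 6.35% of 63 for cytosolic ribosomal proteins. A match is a description of letters, and whether any factor binds there was not measured. The 18 genes with the element had a median log2 fold change of 0.34 (15 higher in IMP1-OE) and the 15 without it 0.30 (14 higher).

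As a group the nucleolar factors stood slightly higher in IMP1-OE, and 0 of them passed the edgeR test across all genes. In bulk RNA, fewer cells expressing a gene and less of its RNA per cell cannot be told apart. Of the 38, 34 had a log2 fold change above 0, where 48.1% of the 12113 genes tested did. The median log2 fold change was 0.32, with the middle of the list between 0.19 and 0.46, while the median over all genes tested was -0.02. Both IMP1-OE libraries lay above both null libraries for 25 members, where the background was 21.3% of genes, and below them for 1, where it was 21.9%. The edgeR quasi-likelihood test with Benjamini-Hochberg adjustment called 0 members and 0 of 12113 genes (0%). At an unadjusted p under 0.05 there were 2 higher members and 1 lower, or 3 of 38, while 10.2% of all genes reached it, so the members' count is near the background. The 1 lower member, PWP2, passed the low-count filter only through the null group. A further 10 members had an unadjusted p between 0.05 and 0.1, as did 7.88% of all genes. DESeq2 called 1 member, PWP2, of 164 genes in all (1.28%), and limma-voom called 0 members and 1 gene. PWP2 was also the 1 member called by edgeR's likelihood ratio test (1.28% of genes) and without a low-count filter (0.129%), and 0 members were called with a replicate block (0.124%).

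**Figure D1:**
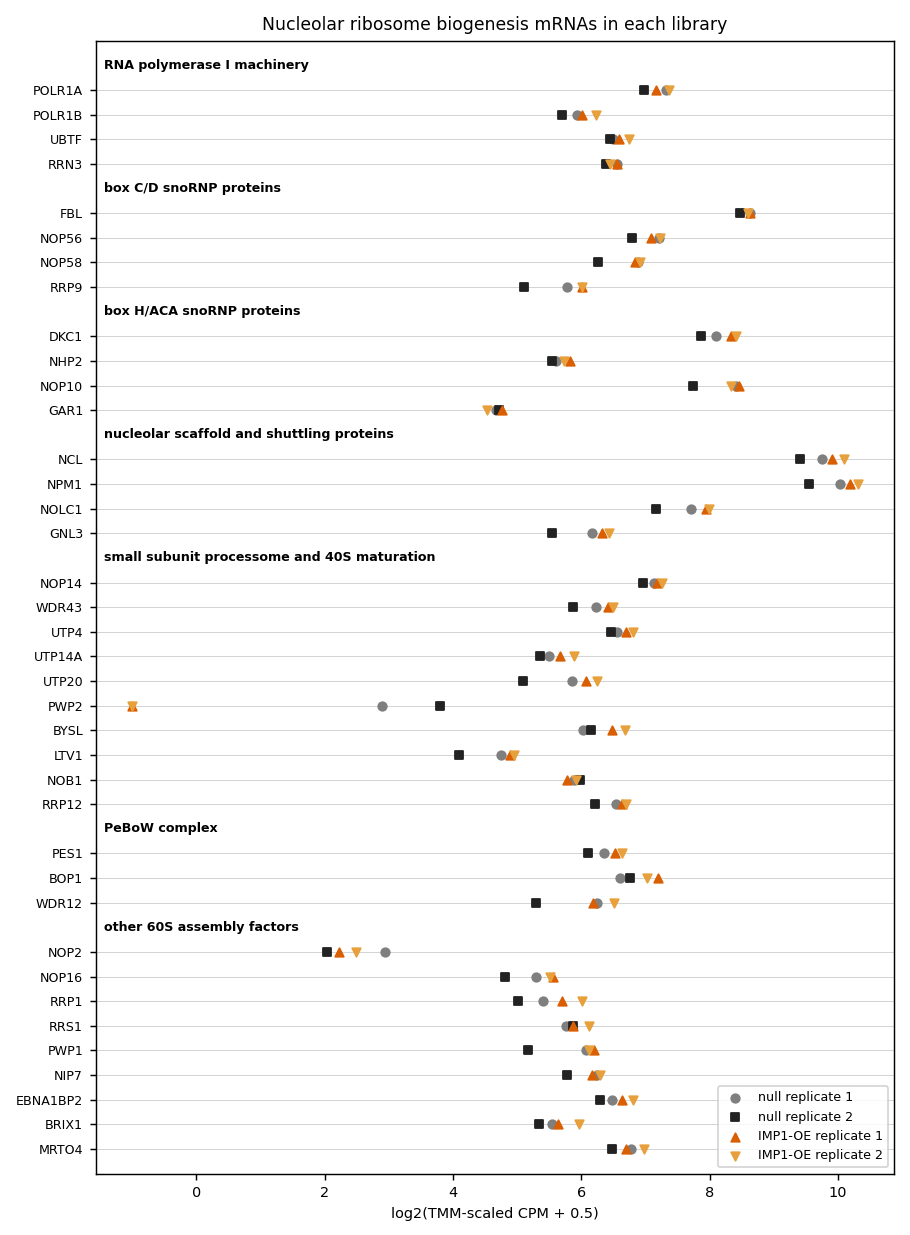
Level of each of the 38 mRNAs in each library as log2(TMM-scaled CPM + 0.5), grouped by role; each point is 1 library. Null replicate 2 is the lowest point for 32 of the 38 genes, and PWP2 is at 0 counts in both IMP1-OE libraries.

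The order of the libraries was shared by most members. Null replicate 2 was the lowest of the 4 libraries for 32 of 38 genes (background 31.8%). IMP1-OE replicate 2 was the highest for 26, without a background share to set beside it. The same number, 32, were lower in null replicate 2 than in null replicate 1 (background 49.8%). Related lists shared much of this order. Null replicate 2 was lowest for 77.2% of cytosolic and 69.6% of mitochondrial ribosomal protein genes, and for 59% of the wider list. It was below null replicate 1 for 78.5%, 82.3% and 69.8% of these genes, in the same order. The median log2 ratio of null replicate 2 to null replicate 1 was -0.32 over the members and 0.00 over all genes. Without null replicate 2, 27 of 38 members were above 0 (50.7% of all genes) and the median was 0.18. Without null replicate 1, 35 were above 0 (49.8% of all genes) and the median was 0.45. In that fit 7 members passed adjustment, 6 higher and PWP2 lower, where 6.46% of all genes did (2.78% higher and 3.68% lower). Without null replicate 2, 0 members passed, and 0.396% of all genes did (0.149% higher and 0.248% lower). In both omissions the lone null library is assumed to vary like the others. Summed over the 38 genes the level was 5424 CPM in null replicate 1, 4263 CPM in null replicate 2, 5890 CPM in IMP1-OE replicate 1 and 6310.5 CPM in IMP1-OE replicate 2. Both IMP1-OE sums are above both null sums, and the 2 null libraries are farther apart than null replicate 1 is from either IMP1-OE library. The high interferon genes and low nucleolar factors of null replicate 2 occur in the same library, and the part of the one in the other was not tested.

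**Figure D2:**
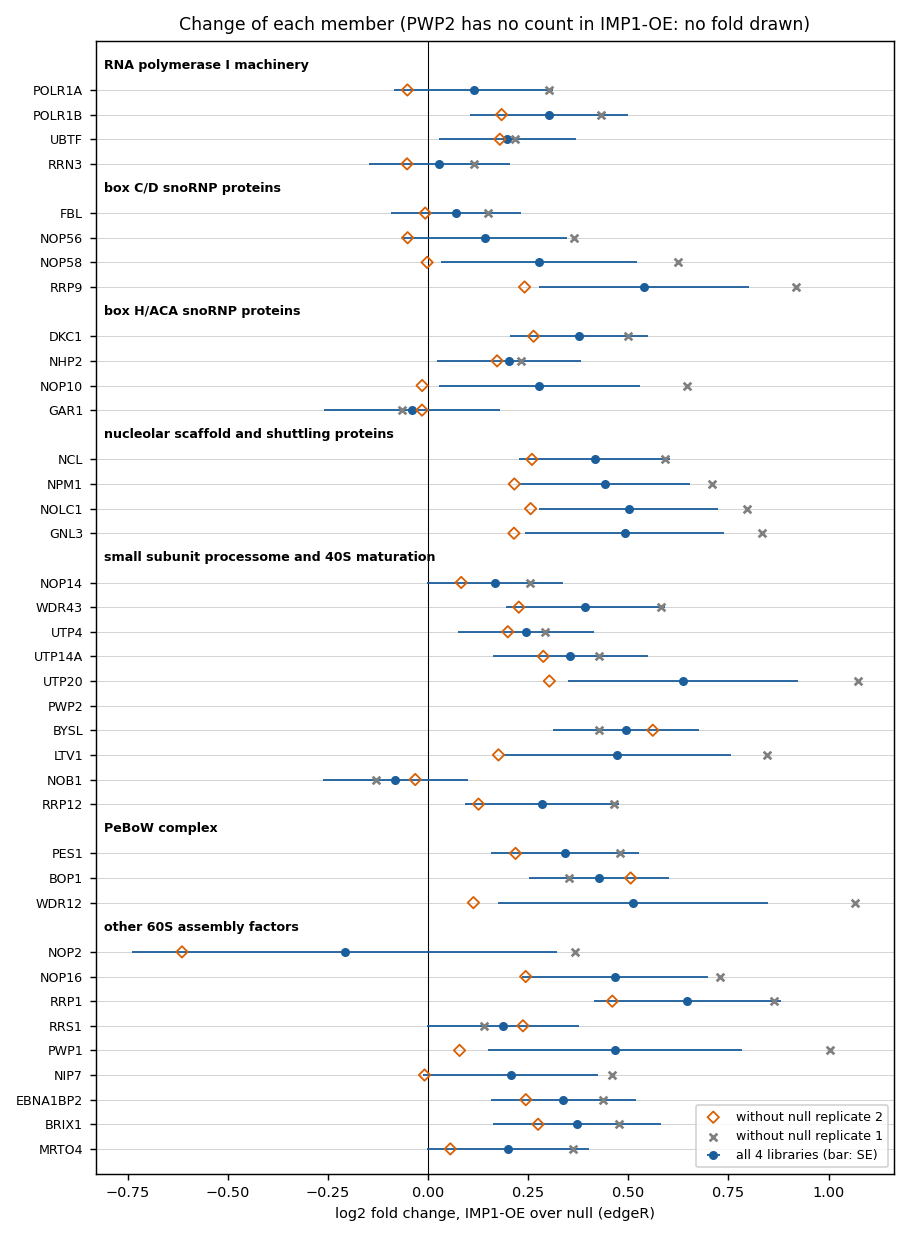
Fitted log2 fold change of each member, IMP1-OE over null, from all 4 libraries (filled points with SE bars) and after leaving out 1 null library. With all libraries 34 of 38 genes lie above 0; open diamonds (without null replicate 2) lie nearer to 0 for most genes, while BYSL, BOP1 and RRS1 move up; PWP2, at 0 counts in IMP1-OE, is not drawn.

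Genes of RNA polymerase I, the first step of the pathway, had small differences, with a median log2 fold change of 0.16, or 0.06 without null replicate 2. POLR1A and POLR1B encode the polymerase's largest subunits, UBTF the factor that opens ribosomal DNA, and RRN3 the factor that brings the polymerase to its promoter. POLR1B stood at 60.8 and 51.2 CPM in null and at 64.0 and 74.2 CPM in IMP1-OE, so its groups did not overlap. Its log2 fold change was 0.30 (SE 0.20, edgeR adjusted p = 0.640). RRN3 stood at 93.5 and 83.3 CPM in null and 93.6 and 86.7 CPM in IMP1-OE, which overlap, with a log2 fold change of 0.03 (SE 0.18). UBTF was at 89.2 and 86.9 CPM against 95.4 and 107 CPM, without overlap, and POLR1A overlapped, at 159.5 and 125 CPM against 144 and 164 CPM. Log2 fold changes with null replicate 2 left out were 0.18 for both POLR1B and UBTF and -0.05 for both POLR1A and RRN3.

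Proteins of the box C/D snoRNPs, which place methyl groups on ribosomal RNA, overlapped between groups for 3 of 4 genes. Among all 12113 genes tested 6883 overlapped. Fibrillarin (FBL) is the methyltransferase, NOP56 and NOP58 are its scaffold partners, and RRP9 binds the U3 RNA that guides early cleavage. FBL levels were 394 and 353 CPM in null and 397 and 386 CPM in IMP1-OE, an overlap, with a log2 fold change of 0.07 (SE 0.16). NOP56 at 147 and 110.1 CPM against 135 and 148 CPM, and NOP58 at 117 and 75.7 CPM against 114 and 119.7 CPM, also overlapped. In both, null replicate 1 lay within or beside the IMP1-OE values and null replicate 2 lay below. RRP9 differed most in this role, at 54.3 and 33.9 CPM in null and 64.2 and 64.1 CPM in IMP1-OE. Its log2 fold change was 0.54 (SE 0.26, edgeR adjusted p = 0.536), 0.24 without null replicate 2 and 0.92 without null replicate 1, where it passed (edgeR adjusted p = 0.0419). Without null replicate 2, FBL, NOP56 and NOP58 were at -0.01, -0.05 and -0.0023.

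The box H/ACA proteins, which turn uridine into pseudouridine and also bind telomerase RNA, had log2 fold changes from -0.04 to 0.38, and differences between them were not tested. DKC1, the pseudouridine synthase dyskerin, stood at 274 and 233 CPM in null and 320.4 and 338 CPM in IMP1-OE. These groups did not overlap, and the log2 fold change was 0.38 (SE 0.17, edgeR adjusted p = 0.516). GAR1, a partner bound to the catalytic subunit, was level at 24.9 and 25.8 CPM against 26.6 and 22.7 CPM (log2 fold change -0.04, SE 0.22). NHP2 was at 48.0 and 46.1 CPM against 56.0 and 52.3 CPM, without overlap. NOP10, the smallest subunit, overlapped at 339 and 214 CPM against 351 and 319.9 CPM, and its single low value was again null replicate 2. Without that library the log2 fold changes were 0.26 for DKC1, 0.17 for NHP2, -0.01 for NOP10 and -0.02 for GAR1.

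The nucleolar scaffold and shuttling proteins had all 4 genes higher in both IMP1-OE libraries, where the background was 21.3%, and a median log2 fold change of 0.47, or 0.24 without null replicate 2. Nucleophosmin (NPM1) is a chaperone that holds the outer nucleolus together, and nucleolin (NCL) binds the nascent precursor RNA. NPM1 stood at 1047 and 743 CPM in null and 1161 and 1269.8 CPM in IMP1-OE, a log2 fold change of 0.44 (SE 0.21, edgeR adjusted p = 0.536). NCL stood at 856 and 680.1 CPM against 960.3 and 1089 CPM, at 0.42 (SE 0.19). NOLC1, which shuttles snoRNP parts between nucleolus and Cajal bodies, was at 209 and 143 CPM against 246 and 252 CPM, with a log2 fold change of 0.50 (SE 0.22, edgeR adjusted p = 0.510). GNL3, the GTP-binding protein nucleostemin, was at 71.1 and 46.3 CPM against 79.2 and 85.8 CPM. None of the 4 passed with all libraries. The differences from null replicate 1 alone were smaller, at log2 values of 0.21 to 0.26, and NPM1 and NOLC1 passed when null replicate 2 was the only null library (edgeR adjusted p 0.0378 and 0.0359). NPM1 has many processed copies in the genome, so its count may be split.

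Among the factors of the small subunit, 8 of 10 were higher in both IMP1-OE libraries, where 21.3% of all genes were. The median log2 fold change was 0.32, and 0.19 without null replicate 2. BYSL, the bystin protein of late 40S precursors, stood at 64.6 and 70.8 CPM in null and 88.2 and 102 CPM in IMP1-OE. The fitted difference was 0.49 log2 units (SE 0.18). The edgeR p was 0.0358 unadjusted, and the edgeR adjusted p was 0.465. BYSL did not follow the library order of most members, since null replicate 2 was the higher null library. Its log2 fold change was 0.56 without that library. UTP20, a long scaffold protein of the processome that cuts the precursor, stood at 57.5 and 33.7 CPM against 67.0 and 74.9 CPM, a log2 fold change of 0.64 (SE 0.29). Leaving out null replicate 2 gave 0.30, and leaving out null replicate 1 gave 1.07. NOB1, the nuclease that makes the final cut of 18S RNA, overlapped at 58.4 and 62.5 CPM against 54.1 and 60.1 CPM, with a log2 fold change of -0.08 (SE 0.18). The remaining higher members were WDR43 (0.39), UTP14A (0.36), LTV1 (0.47), RRP12 (0.28), UTP4 (0.24) and NOP14 (0.17), given as log2 fold changes, and none of these reached an unadjusted p under 0.05. With null replicate 2 left out they were 0.23, 0.29, 0.18, 0.13, 0.20 and 0.08, in the same order.

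PWP2, a core subunit of the processome, was the exception and the one member called in the authors' deposited table (adjusted p = 1.07e-05, where 1.28% of genes are called). It had 71 and 122 counts in the null libraries, 6.94 and 13.4 CPM, and 0 counts in both IMP1-OE libraries. The mean of the null libraries, 10.1 CPM, was 34.6 times a floor of 3 counts per IMP1-OE library, taken before TMM scaling. Null replicate 1 lay nearer to that floor, so this ratio of means is not a lower bound. The edgeR adjusted p was 0.313 (unadjusted 3.61e-04). PWP2 passed the low-count filter only through the null group, where it is high, so these p-values are no independent support for a difference. However, the table also holds an unnamed target of the same length as PWP2, 3188 nt, with the identifier ENSG00000275464. That target had 786 and 568 counts in null and 1058 and 1056 in IMP1-OE, so it was high in all 4 libraries and highest where PWP2 was at 0. The sum of both was 83.8 and 75.5 CPM in null and 100.7 and 100.4 CPM in IMP1-OE, a ratio of 1.26 and so in the range of the other members. RefSeq lists a second gene on chromosome 21, LOC102724159, whose promoter window matched that of PWP2 at 295 of 300 bases with 1 mismatch. Its E-box site differs from that of PWP2, shown above, at 1 of 26 bases.
LOC102724159 (chr21:5154642-5154667, minus strand): agctgcggcaCACGTGcgacagccgt
The deposited files give no sequence or position for ENSG00000275464, so whether it is that gene was not tested. Equal length alone does not show a copy, since 4 of the 38 members share their length with some unnamed target. In a named pair of equal length, SIK1 and SIK1B, the counts were equal in 3 libraries (106, 106 and 96 each) and were 0 and 140 in null replicate 2. Another named pair, GATD3A and GATD3B, showed no such switch. GATD3A had 0 and 0 counts in null and 0 and 2 in IMP1-OE, while GATD3B had 692 and 638 against 581 and 548. How counts were divided between such targets is not stated, and the difference of PWP2 is uncertain.

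**Figure D3:**
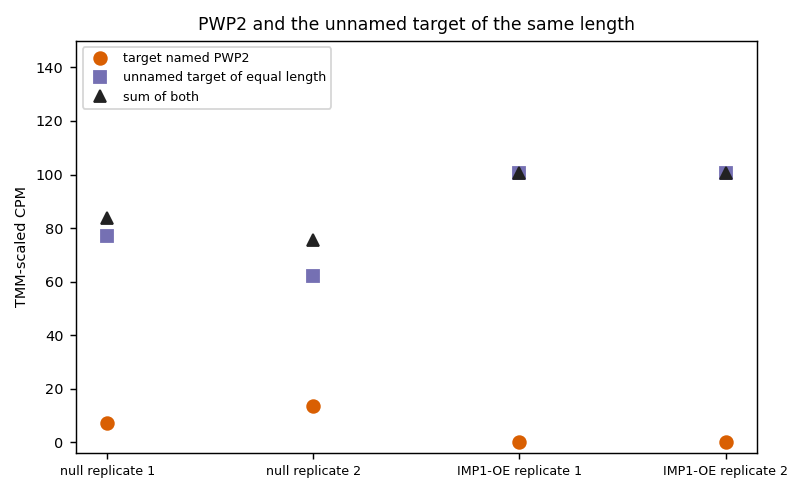
TMM-scaled CPM of the target named PWP2, of the unnamed target of equal length (ENSG00000275464) and of their sum in each library; each point is 1 library. PWP2 is at 0 in both IMP1-OE libraries while the sum is 100.7 and 100.4 CPM there, above 83.8 and 75.5 CPM in null; the squares and triangles coincide in IMP1-OE.

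The PeBoW complex, which is needed to process the 60S precursor, consists of PES1, BOP1 and WDR12. BOP1 stood at 97.0 and 108 CPM in null and 146 and 129.8 CPM in IMP1-OE, with a log2 fold change of 0.43 (SE 0.18, unadjusted p = 0.0512, edgeR adjusted p = 0.492). As with BYSL, null replicate 2 was the higher null library. PES1 was at 81.7 and 68.2 CPM against 91.3 and 98.8 CPM, also without overlap. The log2 fold change without null replicate 2 was 0.51 for BOP1 and 0.22 for PES1. WDR12 stood at 75.2 and 38.8 CPM against 72.0 and 90.7 CPM, so null replicate 1 lay inside the IMP1-OE range. Its log2 fold change of 0.51 (SE 0.34) came down to 0.11 without null replicate 2.

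In the other 60S factors, 6 of 9 genes were higher in both IMP1-OE libraries, where 21.3% of all genes were. RRP1, an assembly factor of early 60S precursors, had the smallest p among the higher members, at 41.9 and 31.6 CPM in null and 51.3 and 63.9 CPM in IMP1-OE. Its log2 fold change was 0.65 (SE 0.23, unadjusted p = 0.0325, edgeR adjusted p = 0.462), and 0.46 without null replicate 2. PWP1 was at 67.1 and 35.3 CPM against 72.8 and 68.9 CPM, where null replicate 1 and IMP1-OE replicate 2 nearly touch. Its log2 fold change of 0.47 (SE 0.32) was 0.08 without null replicate 2. NOP2, a methyltransferase of 28S RNA, was low everywhere, at 7.14 and 3.61 CPM against 4.19 and 5.13 CPM, and its groups overlapped (log2 fold change -0.21, SE 0.53, and -0.61 without null replicate 2). NOP16 (0.47), BRIX1 (0.37), EBNA1BP2 (0.34) and RRS1 (0.19) did not overlap between groups, while NIP7 (0.21) and MRTO4 (0.20) did. These are log2 fold changes, and none had an unadjusted p under 0.05. On leaving out null replicate 2 they became 0.24, 0.27, 0.24, 0.24, -0.01 and 0.06, in the same order.

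Levels per length spanned a wide range among factors that work in the same complexes. On the scale of CPM per kb of effective length, averaged over 4 libraries with the SD between them, NPM1 was at 802 ± 173, NOP10 at 632 ± 129, FBL at 347 ± 18.3 and NCL at 229.8 ± 44.3. NPM1 was above NOP10 in each of the 4 libraries, while the ranges over libraries overlap. DKC1 followed at 119 ± 19.4 and NOLC1 at 87.9 ± 20.7. At the low end were UTP20 at 6.47 ± 1.98, NOP2 at 1.94 ± 0.598 and PWP2 at 1.60 ± 2.03, the last with the reservation above. Within the H/ACA complex NOP10 was at 4.65 to 6.24 times DKC1 per length in each library, NHP2 at 0.568 ± 0.0570 times (SD, n = 4 libraries) and GAR1 at 0.166 to 0.274 times. Within PeBoW, BOP1 was at 1.11 to 1.49 times PES1 and WDR12 at 0.149 to 0.240 times. The listed WDR12 transcript has 8621 nt against 2265 nt for PES1, and in CPM these 2 genes were closer. NOP58 was at 0.660 to 0.808 times NOP56. In each of these ratios the order of the 2 genes was the same in all 4 libraries. For NOP10, BOP1 and WDR12 the null and IMP1-OE ratios overlapped, as they did for NOP56 per FBL and NOP58 per FBL. GAR1 per DKC1 and NHP2 per DKC1 were lower in both IMP1-OE libraries than in both null libraries. For NHP2 the gap was small (0.566 against 0.564). NOP58 per NOP56 was higher in both IMP1-OE libraries (0.763 and 0.660 against 0.808 and 0.773), as was POLR1B per POLR1A (0.633 and 0.681 against 0.740 and 0.750). For single genes the background without overlap was 21.3% higher and 21.9% lower. No background was computed for ratios of gene pairs. The table lists 1 transcript per gene, and how reads of other isoforms were assigned is not stated.

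**Figure D4:**
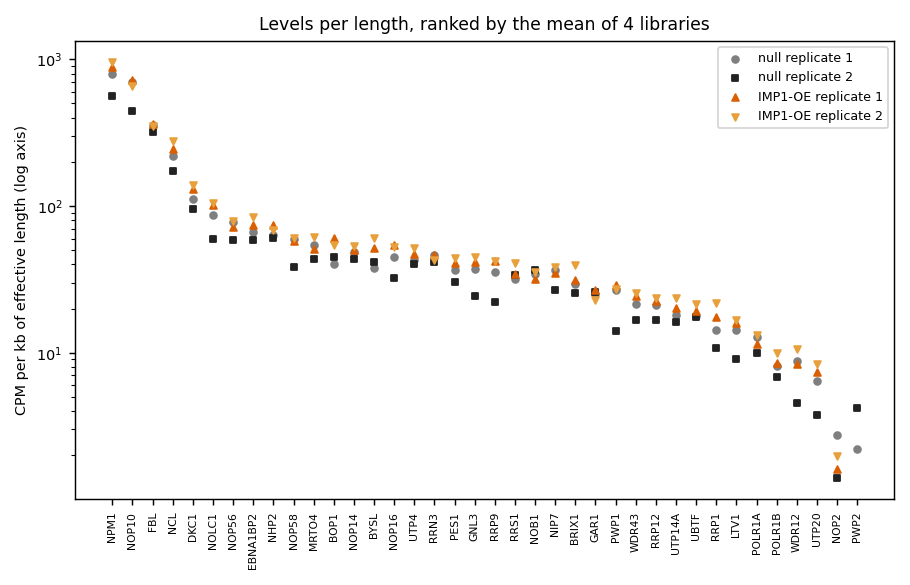
Level per length of each member, in CPM per kb of effective length on a log axis, ranked by the mean over 4 libraries; each point is 1 library. NPM1 and NOP10 lead; NOP2 and PWP2 are lowest, and the 2 zero values of PWP2 are not drawn.

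Other genes of ribosome biogenesis showed the same side with a smaller median. Of 142 further genes listed, 140 were in the table and 139 were tested: 104 were higher and 35 lower, with a median log2 fold change of 0.18. Leaving out null replicate 2 gave a median of 0.11, and leaving out null replicate 1 gave 0.31. At an unadjusted p under 0.05 there were 16 higher and 1 lower (background 4.34% and 5.84%), and 0 passed adjustment in edgeR. The 6 with the smallest p were SPATA5, POLR1D, TCOF1, RPF2, EXOSC3 and TAF1B. SPATA5, an ATPase of 60S maturation, stood at 24.1 and 19.7 CPM in null and 41.4 and 43.1 CPM in IMP1-OE, a log2 fold change of 0.95 (SE 0.21, edgeR adjusted p = 0.433). TCOF1, the gene of treacle, which links UBTF-bound ribosomal DNA to the polymerase, was at 65.3 and 54.6 CPM against 98.1 and 102.9 CPM. POLR1D, a subunit shared by RNA polymerases I and III, was at 47.9 and 63.1 CPM against 105 and 94.8 CPM, and TAF1B, of the promoter factor SL1, at 16.6 and 20.9 CPM against 33.6 and 32.5 CPM. These 3 were picked by their p from 18 further polymerase I genes, of which 12 were higher and 6 lower. The median log2 fold change of the 18 was 0.05. Groups overlapped for 14 of them, and for 6883 of all 12113 genes tested. RPF2, which brings 5S RNA into the 60S precursor, was at 52.7 and 26.7 CPM against 90.7 and 112 CPM. It is called in the authors' deposited table (adjusted p = 0.0251), while its edgeR adjusted p was 0.435. The processome genes IMP3 and IMP4 on this list share only their names with the IMP1 family.

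Beside the genes of ribosomal proteins themselves, the nucleolar factors took a middle place. Cytosolic ribosomal protein genes had a median log2 fold change of 0.47 (76 of 79 higher) and mitochondrial ribosomal protein genes 0.15 (59 of 79 higher). Without null replicate 2 these medians were 0.37 and 0.03, against 0.18 for the nucleolar factors. The differences between lists were not tested. All these values come from the same 4 libraries and share the same null samples.

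**Figure D5:**
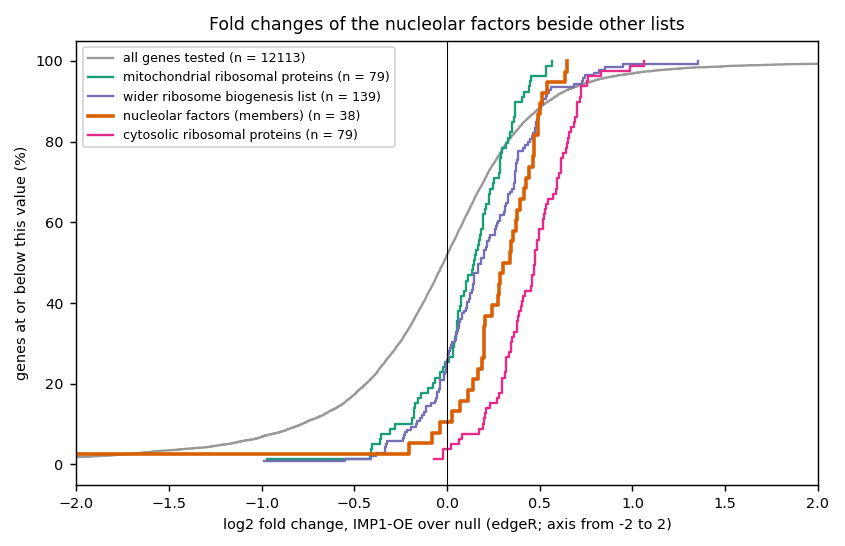
Cumulative share of genes (%) by fitted log2 fold change, IMP1-OE over null, for the 38 nucleolar factors, 139 further biogenesis genes, cytosolic and mitochondrial ribosomal protein genes and all 12113 genes tested. The members' curve, with a median of 0.32, runs between those of mitochondrial (0.15) and cytosolic (0.47) ribosomal proteins; PWP2 lies beyond the left edge.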

How the data were processed

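RNA was fragmented to 18 to 50 nt, ligated to linkers with molecular identifiers, depleted of ribosomal RNA and amplified for 15 cycles, per the labels' protocols. The submitters' processing notes name kallisto 0.46.2, HISAT2 2.1.0, cutadapt 3.5, fastp 0.21 and DESeq, without roles. For the genome build and annotation: not given in the sources used here. The deposited values are estimated counts, per the file headers, whole for 100% of rows, so rounding changed nothing. The table holds 2 sample names that match no label, not analysed here. The authors' deposited table gives log2 fold changes, p-values, adjusted p-values and a mean signal (normalized count) per gene, per the file headers, and its log2 values lay mostly nearer to 0 than unshrunken values and were not used, since no shrinkage is stated. Target lengths are in nucleotides as deposited.

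Counts were tested with edgeR 4.0.16 (R 4.3.3) by its quasi-likelihood F test after TMM scaling and the default low-count filter, which kept 12113 genes and all 38 members (PWP2 only through the null group). No covariate was used, and SEs were derived from the F statistic. Adjusted p-values cover all genes tested, with 0.05 as threshold. DESeq2 1.42.0 and limma 3.58.1 (voom), other scalings and filters, and omission of each library (same genes) were alternatives. An exact permutation test of 2 against 2 libraries cannot give a two-sided p under 0.333. In counts simulated for IMP1-OE against null over 12113 genes, edgeR called 22.0% of genes changed 2-fold and 93.0% of genes changed 4-fold, drawn from genes of moderate to high level. All simulated libraries shared the same spread for a gene, and none stood apart as null replicate 2 does. No change below 2-fold was simulated, so these shares do not describe the members' smaller differences. A count of 0 allows up to 3 counts, which is 0.283 to 0.321 CPM before scaling. Floors cover counting error only. The libraries of a group differed beyond counting noise (chi-square per degree of freedom 55.3 for null and 19.2 for IMP1-OE), so none were merged. All members are accounted for by role, and values by library are printed at least for those with an unadjusted p under 0.05 or a call by the authors, for the smallest and largest p in each role, and for the highest and lowest level per length. Of the wider list, the 6 smallest p are named. The members, roles and lists were chosen with earlier results of these data known, and the E-box search, the DESeq2 fits with a block or without single libraries, and the sum over equal-length targets were added after the data were seen.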

Additional observations from a re-analysis of the deposited data

How the results depend on the processing

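With 2 libraries a group, the count of called genes depended on the test. Against 0 in edgeR's quasi-likelihood test, all-gene calls numbered 164 with DESeq2, 1 with limma-voom, 155 with the edgeR likelihood ratio test, 22 without a filter and 91 with DESeq2 and the replicate block. Member calls were 1 each (PWP2) with DESeq2, the likelihood ratio test and no filter. Leaving out single libraries, edgeR called 0 to 783 genes (DESeq2 1025 without null replicate 1, 263 without null replicate 2, 27 and 33 without IMP1-OE replicates 1 and 2) and 0 to 7 members (DESeq2 1 to 11). In edgeR, 783 and 7 came without null replicate 1, and 48 and 0 without null replicate 2. Members at an unadjusted p under 0.05 numbered 9 with library totals only (10.6% of all genes), 6 with limma-voom (9.39%), 1 with DESeq2 and the block (5.06%), 1 to 20 without single libraries in edgeR and 1 to 16 in DESeq2. The 20 and 16 came without null replicate 1, where 24.9% and 13.1% of all genes did so. The members' median log2 fold change ran from 0.18 (without null replicate 2) to 0.45 (without null replicate 1) in edgeR, 0.18 to 0.46 in DESeq2, and from 0.32 to 0.40 under the other scalings, tools and filters. The cause of these changes was not tested.

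The replicate numbers are shared by the labels, and the deviations of same-numbered libraries correlated at 0.13 over genes, which does not show pairing. With the replicate number as a block edgeR called 15 genes and 0 members, and 5 members had an unadjusted p under 0.05 (10.5% of all genes). PWP2's adjusted p ran from 1.60e-10 (likelihood ratio test) to 0.727 (without IMP1-OE replicate 1).

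The sign turned without null replicate 2 for 7 of 38 members. FBL ranged from -0.00721 to 0.15 over the edgeR omissions and was -0.00913 in DESeq2 without null replicate 2. NIP7 ranged from -0.00872 to 0.46 over the edgeR omissions and was -0.0109 in DESeq2 without null replicate 2. NOP10 ranged from -0.0147 to 0.65 over the edgeR omissions and was -0.0165 in DESeq2 without null replicate 2. NOP56 ranged from -0.0510 to 0.36 over the edgeR omissions and was -0.0532 in DESeq2 without null replicate 2. NOP58 ranged from -0.00225 to 0.62 over the edgeR omissions and was -0.00437 in DESeq2 without null replicate 2. POLR1A ranged from -0.0515 to 0.30 over the edgeR omissions and was -0.0538 in DESeq2 without null replicate 2. RRN3 ranged from -0.0524 to 0.11 over the edgeR omissions and was -0.0543 in DESeq2 without null replicate 2. RRN3 was also -0.0267 and -0.0312 without IMP1-OE replicate 1 in edgeR and DESeq2. GAR1 was 0.0415 with library totals only, ranged from -0.16 to 0.0828 over the edgeR omissions and was 0.0829 in DESeq2 without IMP1-OE replicate 2. NOP2 ranged from -0.61 to 0.37 and was 0.38 in DESeq2 without null replicate 1.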

Other observations

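Genes of the nucleases and nuclease complexes that trim and degrade ribosomal RNA precursors did not go one way. Of 23 tested genes of the RNA exosome, its helpers and RNase P and MRP, 15 were higher in IMP1-OE and 8 lower, with a median log2 fold change of 0.12, and 0 passed adjustment in edgeR. At an unadjusted p under 0.05, 4 were higher (4.34% of all genes) and 1 lower (5.84%). EXOSC3, a cap subunit of the exosome, was the lower one, at 22.6 and 21.3 CPM in null and 11.4 and 10.7 CPM in IMP1-OE (log2 fold change -0.99, SE 0.26, edgeR adjusted p = 0.435). Its value hardly depended on which null library was used (-0.94 without null replicate 1 and -1.03 without null replicate 2). The other subunits EXOSC8, at 75.2 and 79.3 CPM against 121 and 107 CPM, EXOSC9, at 38.5 and 23.9 CPM against 49.8 and 58.3 CPM, and EXOSC2, at 44.1 and 41.5 CPM against 60.05 and 58.8 CPM, were on the higher side. EXOSC4 and EXOSC5 were lower in both IMP1-OE libraries (log2 fold changes -0.33 and -0.32), and EXOSC1 and EXOSC6 (-0.23 and -0.33) overlapped between groups. None of these 4 had an unadjusted p under 0.05.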
